A study of Homo sapiens with 6 samples.

Results

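The genes described here are 35 genes of G2/M and mitosis, chosen by symbol as genes whose products act between the end of DNA replication and the separation of daughter cells, out of 32192 genes in the deposited count table. All 35 were found in the table of counts and in the table of FPKM (fragments per kb of gene, scaled to the reads of the library), and all 35 had enough reads to be tested. RNA was sequenced from 6 libraries of A549, an established human lung adenocarcinoma cell line: 3 from cells given the APEX1 plasmid by transfection (APEX1-OE) and 3 from cells given the control plasmid (Ctrl). APEX1 encodes an apurinic-apyrimidinic endonuclease of base excision repair. The transfection was transient, and the sources used here state neither the share of cells that took up plasmid nor whether the 3 replicates of a group were separate cultures. The p-values below therefore measure the spread between these libraries, which may be technical. Since the study also measured proliferation of the transfected cells, the comparison asks whether mRNAs of cell division differed between APEX1-OE and Ctrl.

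Most of these genes are transcribed periodically, with little mRNA in G1 and a peak in G2 and mitosis, and high mRNA of the set is a familiar mark of dividing cells in tumors. In resting and early cycling cells the DREAM complex holds their promoters silent. Later in the cycle MYBL2 (B-MYB), bound to the MuvB core, and then FOXM1 activate the same promoters through a short element called the cell cycle genes homology region (CHR), often downstream of CCAAT boxes bound by NF-Y. Their proteins drive entry into mitosis (cyclin B with CDK1), build and check the spindle, and start anaphase through the anaphase-promoting complex. RNA of mixed cells was measured, so fewer cells in G2/M and less RNA per G2/M cell cannot be told apart.

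The promoter stretches that the members share are shown first. RefSeq promoter windows on GRCh38.p14, 250 bases before to 50 bases after the gene start, were at hand for 29 of the 35 members in 38 windows. AURKA, TTK, FOXM1, UBE2C, TPX2 and BIRC5 had none. On either strand, TTTGAA or TTCGAA (the letters of the CHR) lay in 57.9% of the 38 member windows and in 16.4% of all 35116 RefSeq windows of that length. CCAAT lay in 73.7% of the member windows against 34.6% of all windows. Both motifs lay in 19 of the 38 windows against 6.4% of all. Some members have several windows, and some of these overlap, so a site can be counted more than once. Counted by member, 20 of the 29 had the CHR letters in a window and 23 had CCAAT. A list of 39 DNA replication and G1/S genes with 42 windows had CCAAT in 64.3% and the CHR letters in 4.8%. CENPE, KIF2C and MYBL2 were the members with a window but with neither motif in it. In 11 windows both motifs fell within the 100 bases before the start, and 4 of these stretches held no annotated exon of the gene (GENCODE 44). Those 4 are printed because the 4 genes also stand for the opposite library patterns described further on. CDC20 (chr1:43358881-43358980, plus strand) and ESPL1 (chr12:53268199-53268298, plus strand) had their highest APEX1-OE value in CPM in replicate 1 (ESPL1 not in FPKM). KIF11 (chr10:92593030-92593129, plus strand) and MKI67 (chr10:128126424-128126523, minus strand) had their lowest there. Each is given 5′ to 3′ in the direction of the gene, and capitals mark the letters of a CHR or a CCAAT on either strand (TTCAAA and ATTGG are their reverse complements).
CDC20: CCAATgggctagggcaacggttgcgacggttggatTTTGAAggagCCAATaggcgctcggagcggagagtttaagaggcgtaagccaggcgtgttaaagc
ESPL1: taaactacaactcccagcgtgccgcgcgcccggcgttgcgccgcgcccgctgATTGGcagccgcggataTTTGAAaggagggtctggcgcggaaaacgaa
KIF11: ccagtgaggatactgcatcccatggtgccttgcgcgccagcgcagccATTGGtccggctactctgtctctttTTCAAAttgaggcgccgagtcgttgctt
MKI67: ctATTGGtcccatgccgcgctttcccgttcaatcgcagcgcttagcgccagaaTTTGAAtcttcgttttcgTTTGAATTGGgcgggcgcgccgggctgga
In each of the 4, a CCAAT or its complement lies upstream of a CHR match, and in MKI67 a second CCAAT complement overlaps the CHR nearest the start. A match describes letters only and is no measure of binding.

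The plasmid and the libraries were checked before the members. APEX1 (ENSG00000100823.11) had counts of 33500, 50335 and 48345 in replicates 1, 2 and 3 of APEX1-OE and of 6551, 7998 and 8384 in those of Ctrl, so every APEX1-OE library lay above every Ctrl library. The log2 fold change was 2.42 ± 0.171 (SE, adjusted p = 0.00809, edgeR quasi-likelihood test with Benjamini-Hochberg adjustment over 16971 genes). APEX1 was the only gene called, and leaving out APEX1-OE replicate 2 or 3, or Ctrl replicate 1 or 2, left no gene called while its log2 fold change stayed between 2.36 and 2.46. Total counts were 28131955 to 41009197 per library. The first principal component of the libraries, computed without genes of the cell cycle lists, held 72.5% of the variance and did not follow the plasmid. On one side lay APEX1-OE replicate 1 with Ctrl replicates 1 and 2, and on the other APEX1-OE replicates 2 and 3 with Ctrl replicate 3, called the PC1 side here, and the labels name no batch. The epithelial keratins KRT8 and KRT18 and the aldehyde dehydrogenases ALDH1A1 and ALDH3A1, known to be high in A549, were among the most abundant markers, whereas EPCAM had 15 to 47 counts and NKX2-1, SFTPB and SFTPC had at most 7 in a library. Of 12 leukocyte, endothelial and fibroblast markers, 4 were high enough to test and none was called. The leukocyte genes PTPRC and CD3E had at most 1 count in any library, whereas CD14, known from monocytes, had 118 to 241 and the collagen gene COL1A1 121 to 188.

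The 35 genes spanned a wide range of levels in these cells. CDC25B, a phosphatase that activates CDK1 at mitotic entry, had the highest mean over the 6 libraries at 55.6 FPKM. It was followed by CCNB1 (25.2 FPKM), the ubiquitin-conjugating enzyme UBE2C (23.1), the anaphase activator CDC20 (22.7) and securin, PTTG1 (21.5). At the other end stood NDC80 (0.532 FPKM), TTK (0.512 FPKM) and CENPE (0.0833 FPKM), and the highest mean was 668 times the lowest. Means of 10 FPKM or more were seen for 11 members and means under 1 FPKM for 4. The order is a coarse one. Of 34 neighbouring pairs in it, 32 had overlapping ranges over the 6 libraries, and the steps from CDC25B to CCNB1 and from TTK to CENPE were the exceptions.

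**Figure D1:**
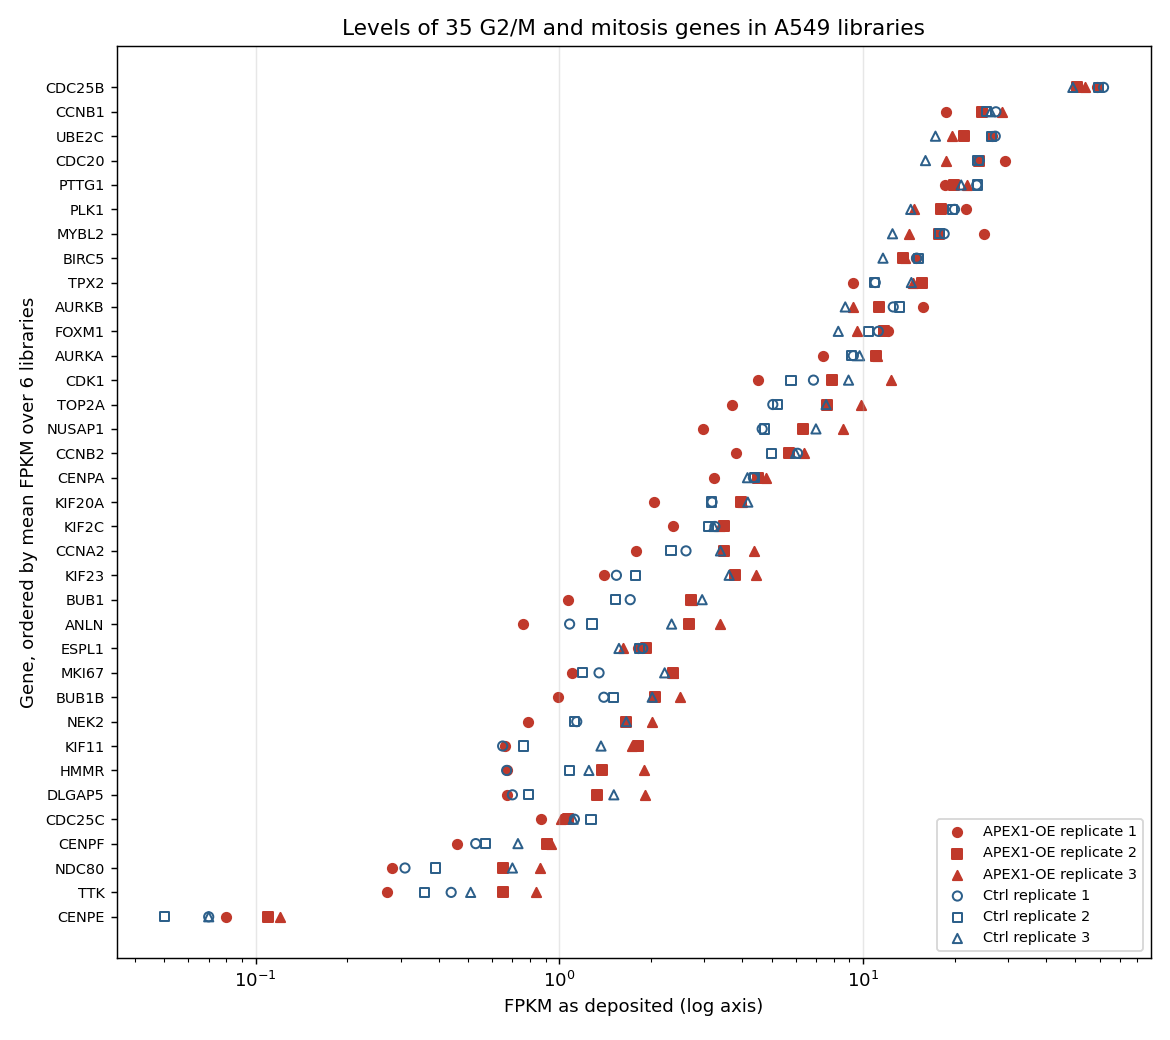
FPKM of each of the 35 genes (log axis) in 3 APEX1-OE libraries (filled red) and 3 Ctrl libraries (open blue), with circle, square and triangle for replicates 1, 2 and 3, ordered by the mean over 6 libraries. Levels run from 55.6 FPKM for CDC25B to 0.0833 FPKM for CENPE, and the red circle of APEX1-OE replicate 1 is the lowest APEX1-OE value in 26 genes.

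None of the 35 members was called between APEX1-OE and Ctrl, where 0.00589% of all 16971 tested genes were called, and the adjusted p of every member was 1 (edgeR quasi-likelihood test with Benjamini-Hochberg adjustment). At an unadjusted p under 0.05 stood 1 member, CENPE, beside a background of 0.695% of all genes. With no difference between the groups, a share of about 0.05 of all genes would lie under that threshold. The fit was thus conservative, and the lack of a call does not show that a member was unchanged. The log2 fold changes lay between -0.27 and 0.61 with a median of 0.13, and the median over all tested genes was 0.03. Estimates were above 0 in 25 members and below 0 in 10, while 57.5% of all genes had an estimate above 0. With upper-quartile normalization the split was 21 to 14, and with an offset for GC content and transcript length it was 20 to 15. The median transcript GC content was 44.4% in the members and 49.6% over all tested genes. In 31 members the difference between the group means in CPM (counts scaled to a common library size and TMM-normalized) was smaller than the larger of the group SDs, the exceptions being CCNB1, PTTG1, CDC25C and CENPE. The SE of the log2 fold changes ran from 0.188 to 0.478. The upper bound of the 95% interval was above 1, a doubling, in 8 members, and the lower bound was below -1 in none.

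Cyclins, CDK1 and its activating phosphatases had 4 estimates below 0, 2 above and a median log2 fold change of -0.10, and none passed the test. CCNB1, cyclin B1, which forms the mitotic kinase with CDK1, stood at 55.9, 62.3 and 70.6 CPM in APEX1-OE (replicates 1, 2 and 3, here and in what follows) and at 75.1, 71.1 and 65.8 CPM in Ctrl. The groups overlapped, with APEX1-OE replicate 3 above Ctrl replicate 3, and the log2 fold change was -0.17 ± 0.188 (SE, 95% interval -0.60 to 0.26). CDK1, the catalytic subunit, stood at 12.6, 18.8 and 28.5 CPM in APEX1-OE and at 17.7, 15.2 and 21.1 CPM in Ctrl. Its lowest and its highest library were both APEX1-OE libraries. CDC25B stood at 323, 234 and 242 CPM in APEX1-OE and at 311, 304 and 225 CPM in Ctrl, so that APEX1-OE replicate 1 sat with Ctrl replicates 1 and 2. The related phosphatase CDC25C (chr5:138285269-138338355 of GRCh38, minus strand) stood at 3.08, 3.20 and 2.93 CPM in APEX1-OE and at 3.65, 4.19 and 3.29 CPM in Ctrl. It was the only member with all 3 APEX1-OE libraries under all 3 Ctrl libraries, with a log2 fold change of -0.27 ± 0.222 (SE, unadjusted p = 0.255, edgeR quasi-likelihood test). Groups that did not overlap were found in 2 of the 35 members, counting both directions, and in 3.39% of all genes. CDC25C shares genomic positions with the opposite-strand gene FAM53C, which had 14861 counts over the 6 libraries against 691 for CDC25C, and the sources used here do not say whether counting used the strand. CCNA2 (cyclin A2) ranged from 6.91 to 13.9 CPM and CCNB2 (cyclin B2) from 14.1 to 20.8 CPM, with log2 fold changes of 0.17 and -0.14. Opposite-strand genes also share positions with CCNA2 (EXOSC9, 1779 counts against 2139 over the 6 libraries), FOXM1 (ITFG2, 1534 against 9564) and ANLN (MATCAP2, 1299 against 2394).

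The mitotic kinases all had estimates above 0, from 0.02 (PLK1) to 0.37 (TTK), with a median log2 fold change of 0.08 over 7 genes. None passed the test. PLK1, which acts from mitotic entry to cytokinesis, stood at 67.1, 47.0 and 37.1 CPM in APEX1-OE and at 56.4, 56.3 and 36.9 CPM in Ctrl. The Ctrl libraries lay within or just below the APEX1-OE range, and the log2 fold change was 0.02 (95% interval -0.64 to 0.67). AURKA, the spindle pole kinase, stood at 27.8, 35.1 and 34.4 CPM in APEX1-OE and at 32.1, 32.2 and 30.7 CPM in Ctrl. It varied least of all members, with the highest library at 1.26 times the lowest, and its log2 fold change was 0.03 ± 0.199 (SE). TTK, the spindle checkpoint kinase also called MPS1, stood at 1.41, 2.90 and 3.63 CPM in APEX1-OE and at 2.12, 1.79 and 2.27 CPM in Ctrl. APEX1-OE replicate 1 lay below all Ctrl libraries and the other APEX1-OE replicates above them, so the estimate of 0.37 (95% interval -0.45 to 1.18) averaged opposite positions. The checkpoint genes BUB1 and BUB1B had log2 fold changes of 0.04 and 0.13, the centrosomal kinase NEK2 0.14 and AURKB, the kinase of the chromosomal passenger complex, 0.08. With upper-quartile normalization the estimates of PLK1, AURKA and BUB1 were below 0, and with a further library term described below 3 of the 7 were above 0.

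The transcription factors of the program, MYBL2 and FOXM1, are given with their values because they come up again below. MYBL2 stood at 96.0, 57.5 and 44.6 CPM in APEX1-OE and at 65.0, 63.8 and 40.1 CPM in Ctrl. FOXM1 stood at 60.7, 50.02 and 39.5 CPM in APEX1-OE and at 51.9, 48.9 and 34.9 CPM in Ctrl. In both genes APEX1-OE replicate 1 was the highest and Ctrl replicate 3 the lowest of the 6 libraries. The log2 fold changes were 0.23 (95% interval -0.53 to 0.99) and 0.15 (95% interval -0.42 to 0.72), and neither passed the test.

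Genes of the anaphase switch had 2 estimates above 0 and 2 below, with a median log2 fold change of -0.03. CDC20, which activates the anaphase-promoting complex, stood at 74.0, 51.5 and 38.9 CPM in APEX1-OE and at 55.9, 56.2 and 33.9 CPM in Ctrl. UBE2C, which passes ubiquitin to the substrates of that complex, stood at 47.2, 32.3 and 28.5 CPM in APEX1-OE and at 44.3, 43.9 and 25.7 CPM in Ctrl. As in MYBL2, APEX1-OE replicate 1 was the highest and Ctrl replicate 3 the lowest library in both, with log2 fold changes of 0.17 and -0.08. PTTG1, securin, the inhibitor of separase, stood at 29.5, 26.7 and 28.6 CPM in APEX1-OE and at 34.5, 35.3 and 27.9 CPM in Ctrl. APEX1-OE replicates were close together and Ctrl replicate 3 lay within them, and the log2 fold change was -0.20 ± 0.202 (SE, unadjusted p = 0.341, edgeR quasi-likelihood test). ESPL1, separase itself, which cuts cohesin, ranged from 12.1 to 16.6 CPM with a log2 fold change of 0.01.

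The 5 kinesins had a median log2 fold change of 0.44, with 3 estimates above 0, 2 below and no call, and with the PC1 side as a further term the median was 0.04. CENPE (chr4:103105349-103198445 of GRCh38, minus strand), a very large motor that carries chromosomes to the spindle equator, stood at 0.987, 1.13 and 1.13 CPM in APEX1-OE and at 0.781, 0.607 and 0.739 CPM in Ctrl. The lowest APEX1-OE library lay above the highest Ctrl library, and the log2 fold change was 0.61 ± 0.254 (SE, unadjusted p = 0.0410, adjusted p = 1, edgeR quasi-likelihood test). The difference rests on few reads, 26, 48 and 42 counts against 21, 20 and 29, and its 20 counts in Ctrl replicate 2 were the smallest value of any member in a library. KIF11, the motor that pushes spindle poles apart, stood at 4.40, 10.3 and 9.52 CPM in APEX1-OE and at 4.02, 4.74 and 7.67 CPM in Ctrl. KIF23, a motor of the central spindle, stood at 7.55, 17.2 and 19.6 CPM in APEX1-OE and at 7.59, 8.93 and 16.3 CPM in Ctrl. In both genes APEX1-OE replicate 1 lay at the level of Ctrl replicates 1 and 2, and the log2 fold changes were 0.56 (95% interval -0.34 to 1.46) and 0.44 (95% interval -0.55 to 1.42). KIF20A, which acts in cytokinesis, and KIF2C, which removes tubulin at the kinetochore, had log2 fold changes of -0.11 and -0.08. KIF20A lies across from BRD8 and CDC23, which had 6153 and 6151 counts over the 6 libraries against 2788 for KIF20A.

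With CENPE counted among the kinesins, groups overlapped in every other centromere, spindle and cytokinesis gene. CENPF, a large protein of the outer kinetochore, stood at 6.61, 11.0 and 11.0 CPM in APEX1-OE and at 6.92, 7.62 and 8.71 CPM in Ctrl, a log2 fold change of 0.30 (95% interval -0.33 to 0.93). NDC80, which holds microtubules at the kinetochore, stood at 0.835, 1.65 and 2.12 CPM in APEX1-OE and at 0.856, 1.09 and 1.76 CPM in Ctrl, a log2 fold change of 0.31 (95% interval -0.62 to 1.25). Neither pair of groups separated, since APEX1-OE replicate 1 was the lowest of all libraries. CENPA, the histone of the centromere, had a log2 fold change of -0.08. It shares positions with the same-strand gene SLC35F6, which had 17360 counts over the 6 libraries against 1547 for CENPA. The microtubule-binding spindle genes TPX2 (which also activates AURKA), NUSAP1, DLGAP5 and HMMR had 4 estimates above 0, from 0.08 to 0.35, and none passed the test. NUSAP1 shares positions with the noncoding OIP5-AS1 of the same strand, which had 13463 counts over the 6 libraries against 3576 for NUSAP1. ANLN, the actin-binding scaffold of the cleavage furrow, stood at 5.05, 14.9 and 18.4 CPM in APEX1-OE and at 6.55, 7.86 and 12.9 CPM in Ctrl. It had the widest spread of all members, with the highest library at 3.64 times the lowest, and a log2 fold change of 0.49 (95% interval -0.61 to 1.60). BIRC5 (survivin), of the chromosomal passenger complex, had a log2 fold change of -0.0038, and its sign was above 0 with DESeq2's size factors and with FPKM.

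The proliferation marker MKI67 (Ki-67) stood at 19.3, 34.9 and 34.1 CPM in APEX1-OE and at 21.6, 19.4 and 32.5 CPM in Ctrl. TOP2A, the topoisomerase that untangles sister chromatids, stood at 29.5, 51.1 and 64.4 CPM in APEX1-OE and at 36.8, 38.7 and 50.2 CPM in Ctrl. In both, APEX1-OE replicate 1 was the lowest of the 6 libraries and Ctrl replicate 3 the highest of the Ctrl libraries, so the groups overlapped. The log2 fold changes were 0.27 ± 0.313 and 0.21 ± 0.306 (SE), each smaller than its own SE.

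**Figure D2:**
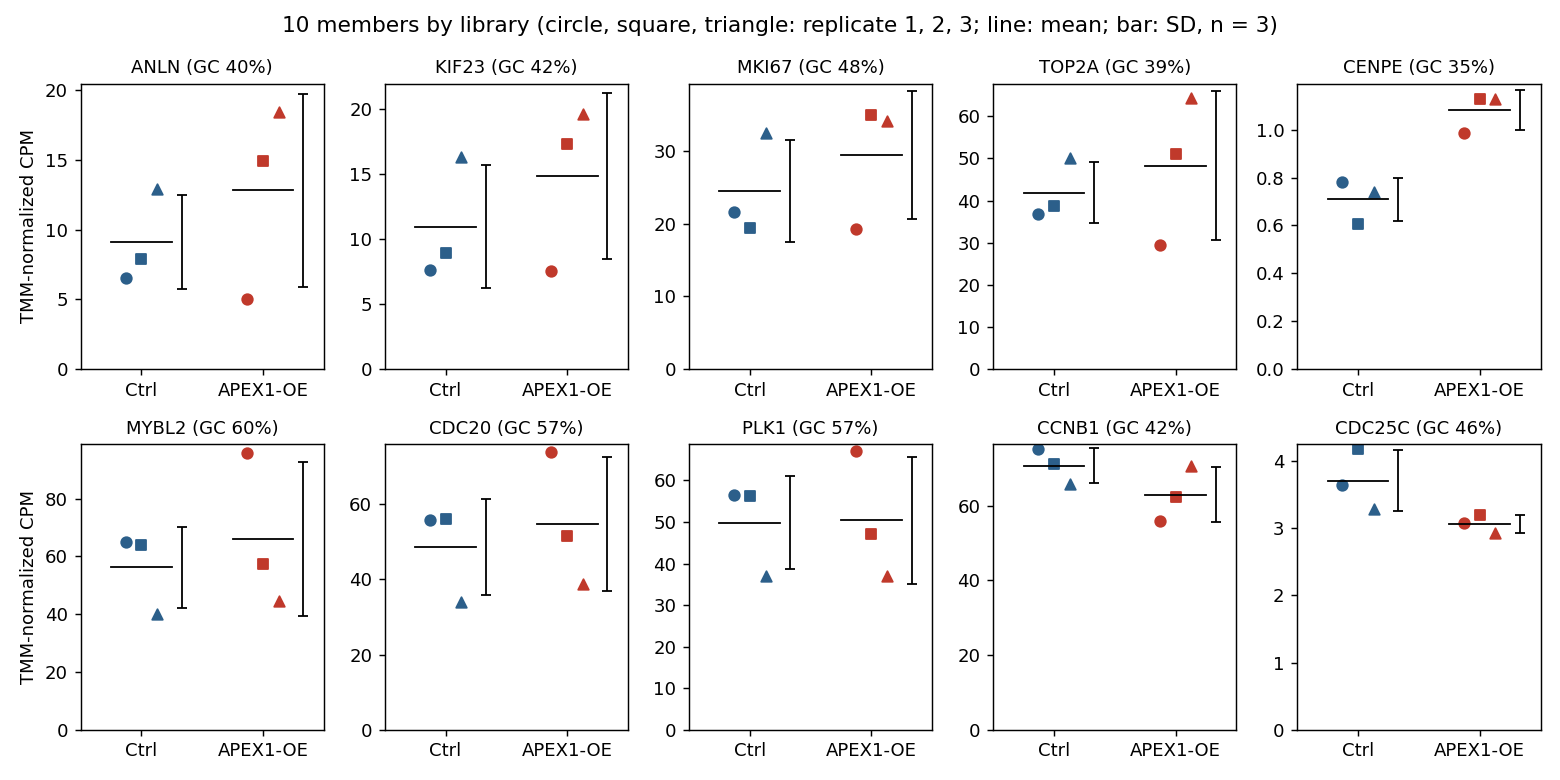
TMM-normalized CPM (axis from 0) of 10 genes in each library, blue for Ctrl and red for APEX1-OE, with circle, square and triangle for replicates 1, 2 and 3, a line at the mean and a bar of 1 SD either side (n = 3). The groups are apart in CENPE (0.987 to 1.13 against 0.607 to 0.781 CPM) and CDC25C (2.93 to 3.20 against 3.29 to 4.19 CPM) and overlap in the other 8 genes shown.

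The spread within groups had a regular shape across the members. In CPM, APEX1-OE replicate 1 lay below both other APEX1-OE replicates in 24 members and above both in 10, leaving CDC25C between them. The 10 were CDC25B, PLK1, AURKB, FOXM1, MYBL2, CDC20, UBE2C, PTTG1, ESPL1 and BIRC5, and in the same 10 Ctrl replicate 3 was the lowest Ctrl library. In 18 of the 24, among them CDK1, BUB1, TTK, KIF11, KIF23, ANLN, TOP2A and MKI67, Ctrl replicate 3 was the highest Ctrl library. In FPKM, which follows total reads and not TMM, the counts were 26 below and 8 above. PTTG1 changed from above to below, CDC25C from between the others to below, and ESPL1 from above to between the others. A ratio of 2 or more between the highest and the lowest library was found in 17 members.

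The 2 patterns differed in the base composition of their transcripts. The 24 members whose lowest APEX1-OE value was in replicate 1 had a median GC content of 41.8% (35 to 50%). The 10 whose highest APEX1-OE value was there had a median of 56.3% (45.7 to 60%). Over the 25 members with GC content under 50%, the median deviation from a gene's mean log2 CPM was -0.51 in APEX1-OE replicate 1, 0.24 in replicate 2 and 0.45 in replicate 3 of that group, and 0.18 in Ctrl replicate 3. Over the 10 members at 50% or more it was 0.38, -0.04, -0.29 and -0.42 in those libraries. The signs were opposite in all 4. Across the 35 members Spearman's rho between GC content and deviation was 0.716, -0.632 and -0.871 in the APEX1-OE libraries, in replicate order, and 0.708, 0.713 and -0.649 in the Ctrl libraries. Across 16746 tested genes with a GC content it was 0.760, -0.606 and -0.785, and 0.642, 0.642 and -0.708. These are descriptions within single libraries, in which genes share the library and are not independent replicates. The members thus had the signs that all genes had in each library, and the division of the libraries by sign was that of the PC1 side. The part of GC content in the member differences was not tested.

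**Figure D3:**
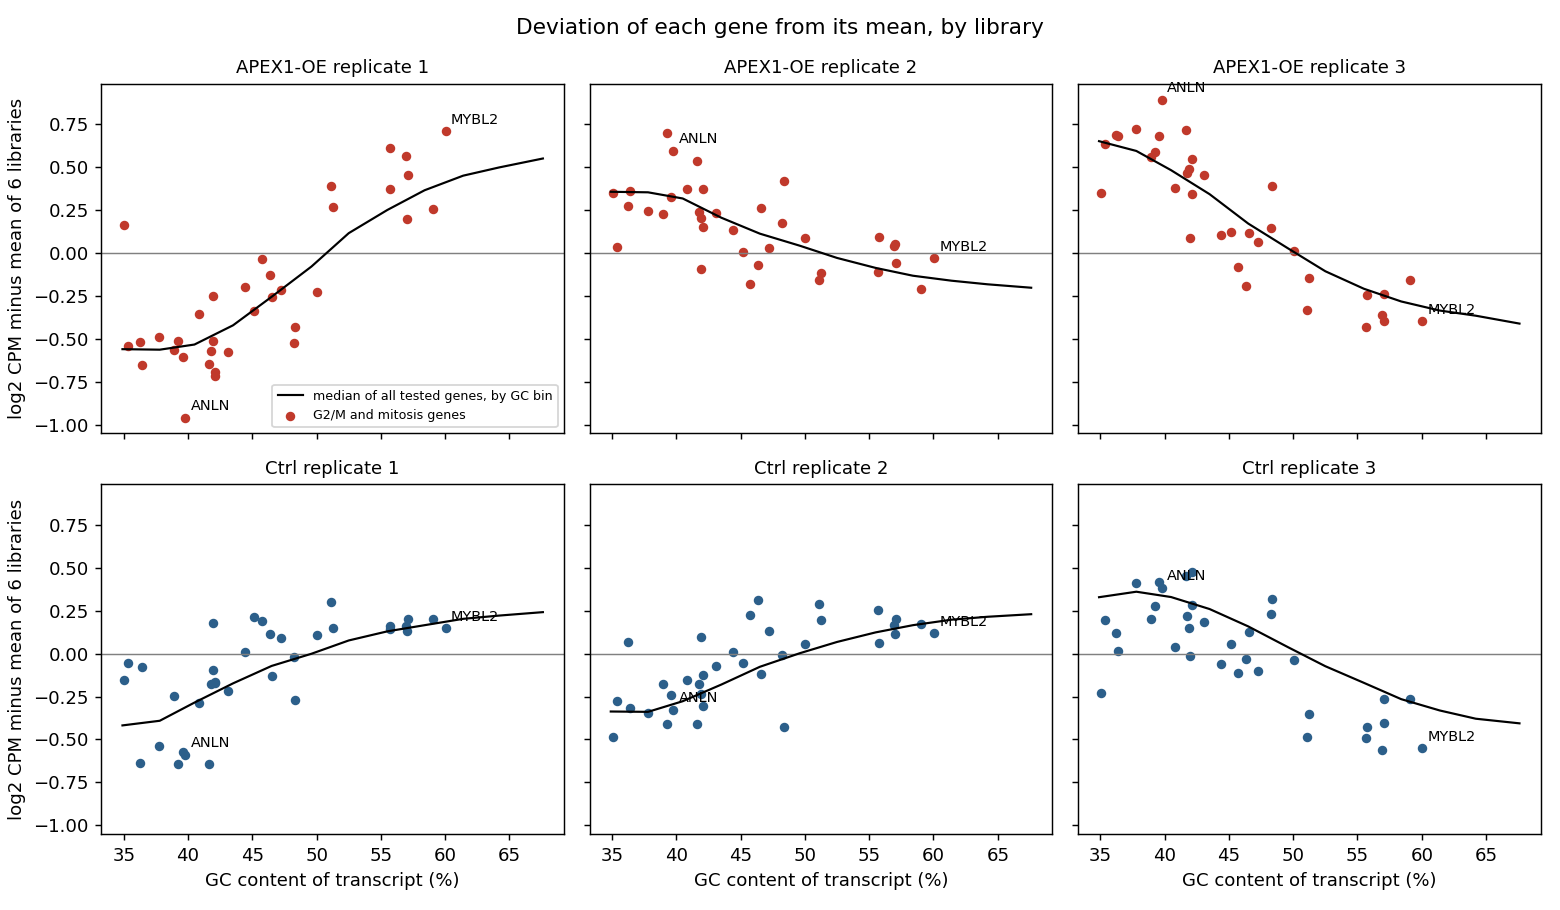
Deviation of each member's log2 CPM from its mean over 6 libraries (vertical axis) against the GC content of its transcript in percent (horizontal axis), 1 panel per library, with the black line at the median of all tested genes by GC bin. Points and line climb with GC content in APEX1-OE replicate 1 and Ctrl replicates 1 and 2 and decline in the other 3 libraries, with Spearman's rho over the members between -0.871 and 0.716.

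The comparison was also fitted with the PC1 side of each library as a term. That side was read from the same 6 libraries, so the SEs and intervals of this fit take it as known. The term is the same for every library of a side, whereas scores on the component differed within a side. They were -58.28 for APEX1-OE replicate 1 and -32.48 and -30.95 for Ctrl replicates 1 and 2. What this leaves in the estimates of this fit was not tested. With condition as the only term, 0.695% of all genes had an unadjusted p under 0.05, and with the side added 11.6% had. The median SE of the members was then 0.135, and the number of estimates above 0 was 17 of 35, beside 51.6% of all genes, with a median log2 fold change of -0.01. Many directions given above thus turned, among them those of CDK1, TOP2A, ANLN, BUB1, BUB1B, NEK2, NDC80, CCNA2, NUSAP1 and TPX2 to below 0 and those of CDC25B, UBE2C and BIRC5 to above 0. At an unadjusted p under 0.05, 4 members were higher in APEX1-OE and none lower, beside backgrounds of 8.61% of genes higher and 3.02% lower. They were MYBL2 (log2 fold change 0.46, 95% interval 0.23 to 0.70), CDC20 (0.41, 0.17 to 0.65), AURKB (0.32, 0.06 to 0.58) and FOXM1 (0.31, 0.08 to 0.55). All 4 belong to the 10 members whose highest APEX1-OE value was in replicate 1. The smallest adjusted p was 0.302 (edgeR quasi-likelihood test), so none was called. CENPE stayed at 0.57 (95% interval -0.02 to 1.16). The upper bound exceeded 1 in 1 member, CENPE, and the lower bound was below -1 in none. With a GC content and length offset as well, 6 members were higher at that unadjusted p, the same 4 with UBE2C (0.20) and BIRC5 (0.17), beside 7.41% of genes higher, and the smallest adjusted p was 0.091. Without APEX1-OE replicate 1 and with no such term, ANLN, KIF11, TTK and CENPE were higher at an unadjusted p under 0.05, beside 7.61% of genes in either direction, and the smallest adjusted p was 0.507. The members at the unadjusted threshold thus differed between these fits.

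**Figure D4:**
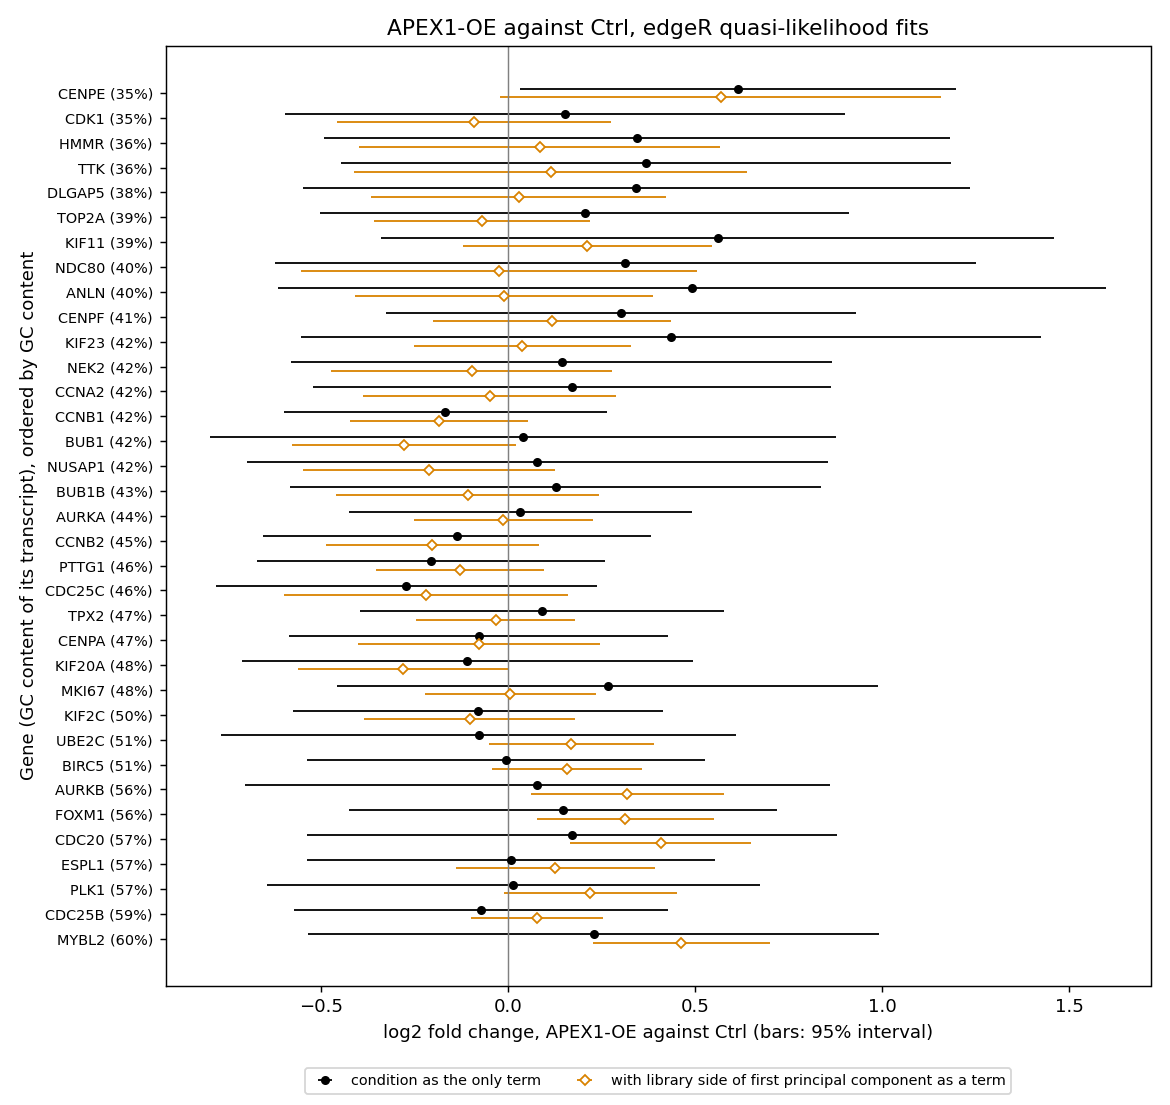
log2 fold change of APEX1-OE against Ctrl (horizontal axis, bars for the 95% interval) for the 35 genes ordered by GC content, with the condition as the only term (black) and with the PC1 side as a further term (orange). Intervals of the first fit include 0 in all but CENPE, and those of the second lie above 0 in MYBL2, CDC20, AURKB and FOXM1. The second fit takes as known a side that was read from the same libraries.

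Other genes of cell division were described from 3 further lists. Of 58 other mitosis genes tested, none was called and none had an unadjusted p under 0.05. Estimates were above 0 in 43 and below 0 in 15, with a median log2 fold change of 0.11. Over all tested genes, 57.5% of the estimates were above 0. The smallest unadjusted p values belonged to CENPK, a protein of the inner kinetochore (log2 fold change 0.74, unadjusted p = 0.0623, edgeR quasi-likelihood test), and to KIF14, a kinesin of the central spindle (0.71, unadjusted p = 0.0747). Groups did not overlap in 2 of the 58, SKA1 and CDC25A, named here after their values were seen and both higher in APEX1-OE, beside 3.39% of all genes in either direction. Of 20 listed subunits and regulators of the DREAM and MYB-MuvB complexes, 18 were tested and none was called, with 16 estimates above 0 and a median of 0.14. The MuvB subunits LIN9 (0.54) and LIN54 (0.59) had the smallest p values of that list, 0.199 in both (edgeR quasi-likelihood test). CDKN2A, which is deleted in A549, had at most 2 counts in a library and was not tested. Of 39 DNA replication and G1/S genes, none was called, with 27 estimates above 0, 12 below and a median of 0.05. In that list the checkpoint mediator CLSPN (0.70, unadjusted p = 0.132) and the CDK phosphatase CDC25A (0.31, unadjusted p = 0.169) had the smallest p values (edgeR quasi-likelihood test). With the PC1 side as a term, 4 of the other mitosis genes were higher and 1 lower at an unadjusted p under 0.05. The numbers were 2 and 2 in the DREAM list, and 7 and 0 in the G1/S list. Over all genes 8.61% were higher and 3.02% lower, and no gene of the 3 lists was called. In that fit, estimates were above 0 in 32 of the 58 other mitosis genes and 22 of the 39 G1/S genes. Of the 18 DREAM genes 8 were above 0, with a median of -0.01, beside 51.6% of all genes.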

How the data were processed

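Polyadenylated RNA of 3 APEX1-OE and 3 Ctrl libraries of A549 cells was sequenced by the authors as stranded, paired-end libraries. The authors trimmed reads with the FASTX-Toolkit 0.0.13, discarded reads with more than 2 N bases or under 16 nt, and aligned them to GRCh38 with tophat2, allowing 4 mismatches. The deposited counts per gene are raw, and the deposited FPKM were made by the authors from the same uniquely mapped reads and cover 31951 of the 32192 genes. The sources used here do not name the counting tool, its annotation or its strand setting.

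Versions were DESeq2 1.42.0, limma 3.58.1 and edgeR 4.0.16 under R 4.3.3, with Python 3.11.15 for the motifs. Genes with low counts were removed by filterByExpr, with a minimum count of 10 and a minimum total of 15. The minimum count was not required in every library. Libraries were scaled by TMM, and genes were tested with edgeR's robust quasi-likelihood F-test, condition as the only term, all 6 libraries. Benjamini-Hochberg adjustment was over all 16971 genes tested, with a threshold of 0.05. The SE is the log2 fold change over the square root of F. With 3 libraries against 3, an exact permutation test of a single gene allows no p under 0.1, and none was used. Log2 values of FPKM were tested with limma after adding 1 or 0.1. Transcript GC content and gene positions came from GENCODE 44 on GRCh38, available for 98.7% of the tested genes, and the offset for GC content and length used splines with 5 degrees of freedom each. The first principal component was computed without 149 genes of the cell cycle lists. The tests were tested on simulated data.

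The 35 members, the other lists and the alternatives were chosen with earlier results of these data known. Values in every library are given for members whose groups do not overlap, for those with the 8 smallest p values, the 3 highest and 3 lowest FPKM, the largest and smallest spread, and for MKI67, TOP2A, CCNB1, CDK1, PLK1 and AURKA, and for 2 genes with the smallest p of each other list the fold change is given. MYBL2, FOXM1 and CDC20 were added after their values were seen. No 2 libraries agreed within sampling noise, and the closest pair, Ctrl replicates 1 and 2, had a chi-square of 3.79 per degree of freedom. Splicing events were not analysed here.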

Additional observations from a re-analysis of the deposited data

How the results depend on the processing

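No member was called in any replicate-deleted, renormalized, refiltered, DESeq2, voom, FPKM, block, principal component or GC fit. With condition as the only term and all 6 libraries, an unadjusted p under 0.05 counted 1 member, CENPE (0.61). Which members reached that unadjusted threshold differed between the fits. The labels do not say whether replicate numbers pair the libraries. Deviations of same-numbered libraries had r = 0.607 and 0.700 for numbers 1 and 3 and -0.521 for number 2. Libraries numbered 1 and 3 share a PC1 side and those numbered 2 do not, so these values do not settle pairing. The replicate block left 0 members called, and no call of a member or of the other mitosis genes changed under it. It called 2 genes in all, and KIF11 was the member at an unadjusted p under 0.05, beside 3.31% of all genes in that fit. Its log2 fold changes of PLK1 and BIRC5 were -0.00098 and 0.0041. APEX1 kept a log2 fold change of 2.36 to 2.46 with each library left out, and was then not called in 4 of the 6 fits. Why the call was lost in those 4 was not tested. The median of the members ran from 0.0209 to 0.21 over those 6 fits. Fits that leave out 1 library pool the spread over the rest.

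The members whose sign turned were all uncalled, with estimates from near 0 up to that of ANLN (0.49), and the cause was not tested. BIRC5 was 0.0134 with RLE, 0.00602 with no filter, 0.00902 with DESeq2, 0.0033 with voom, 0.0177 with log2(FPKM + 1) with or without a mean of at least 1, and 0.0195 with log2(FPKM + 0.1). PLK1 was -0.00399 with voom. With upper-quartile normalization PLK1 was -0.0149, AURKA -0.00714, BUB1 -0.00739 and ESPL1 -0.0267. With the PC1 side as a term, CDC25B was 0.0776, UBE2C 0.169, BIRC5 0.158, TPX2 -0.0327, AURKA -0.0115, CDK1 -0.0904, TOP2A -0.0685, NUSAP1 -0.211, CCNA2 -0.0487, BUB1 -0.277, ANLN -0.0102, BUB1B -0.107, NEK2 -0.0969 and NDC80 -0.0235. With the GC and length offset, UBE2C was 0.00104, BIRC5 0.0344, AURKA -0.00634, CDK1 -0.129, TOP2A -0.0986, NUSAP1 -0.0611, BUB1 -0.111, ESPL1 -0.0373 and BUB1B -0.0159. With both, UBE2C was 0.20, BIRC5 0.165, CDK1 -0.0994, TOP2A -0.00661, NUSAP1 -0.135, CENPA 0.00329, BUB1 -0.19, BUB1B -0.0119, NEK2 -0.0329 and NDC80 -0.00481.

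With 1 library left out in turn, the lowest and highest log2 fold changes were -0.027 and 0.118 for AURKA, -0.286 and 0.283 for AURKB, -0.161 and 0.0932 for BIRC5, -0.132 and 0.324 for BUB1, -0.09 and 0.357 for BUB1B, -0.0583 and 0.389 for CCNA2, -0.118 and 0.365 for CDC20, -0.246 and 0.0137 for CDC25B, and -0.197 and 0.378 for CDK1. They were -0.112 and 0.12 for ESPL1, -0.0266 and 0.291 for FOXM1, -0.226 and 0.0696 for KIF20A, -0.153 and 0.445 for MYBL2, -0.0778 and 0.371 for NEK2, -0.221 and 0.336 for NUSAP1, -0.258 and 0.193 for PLK1, -0.0573 and 0.445 for TOP2A, -0.0233 and 0.21 for TPX2, and -0.332 and 0.0634 for UBE2C. The remaining 16 members kept their sign. Depth limits CENPE most, with 20 counts in its lowest library, while 28 members had at least 100 counts in every library.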
